A study of Mus musculus and synthetic RNA with 74 samples.

Results

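The genes described here are those that write and erase N6-methyladenosine (m6A) on mRNA in the mouse: Mettl3, Mettl14, Wtap, Zc3h13, Rbm15, Rbm15b and Cbll1 of the writer complex, and the erasers Fto and Alkbh5. They were chosen by name, 9 genes of 20330 listed at embryonic day E2.5 and of 21199 listed at E3.5, and all 9 had a value at both stages. The study disrupted Mettl16, a different m6A methyltransferase, by inserting a cassette with stop codons in exon 3 (1 line, from B6D2F1/J founders bred with C57BL/6JRj), crossed heterozygous animals after superovulation of the females, and sequenced single embryos as morulae (E2.5) and blastocysts (E3.5). The 31 morulae comprised 5 wild type (WT), 14 heterozygous (HET) and 12 knockout (KO) embryos. The 39 blastocysts comprised 12 KO, 9 HET and 18 WT embryos. Genotypes were read from the Mettl16 reads of each library, so every group shares the type of cross and the hormone treatment. The background is mixed, so sequence linked to Mettl16 on chromosome 11, where Alkbh5 also lies, can differ between genotypes.

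The value used is 1 normalized mean per gene and stage, taken by the authors over all embryos of that stage with the 3 genotypes together. It carries no spread between embryos, and no value per embryo was used here, so no comparison below has an error, a test or a replicate check, and none is between genotypes. The tables' own genotype comparisons were not used either. A mean over embryos cannot tell an even level from a high level in a few embryos, and fewer cells of a type cannot be told apart from less RNA per cell. The mix of genotypes differed between the stages, each stage was normalized on its own, and the embryos were different collections, so genotype mix, collection and stage cannot be told apart in any stage difference given here.

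In the writer complex METTL3 carries the catalytic site and METTL14 holds the RNA substrate. WTAP ties this pair to a set of adaptors, among them VIRMA, ZC3H13, CBLL1 (also called HAKAI) and the RNA-binding proteins RBM15 and RBM15B, which bring the complex to its RNA targets. FTO and ALKBH5 are iron-dependent dioxygenases that remove methyl groups from RNA. In the preimplantation embryo maternal transcripts are cleared while the embryo's own genome takes over, and the m6A pathway is known for its role in the turnover of mRNAs.

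To compare levels between genes, each pooled mean was divided by the length of the gene's listed exons in kilobases (kb), and the value per kb was scaled so that the 19555 genes with a length and a value at both stages sum to 1000000 at each stage. This is called the relative level below. The summed pooled means were 23557112 at E2.5 and 27145016 at E3.5. Over these genes the median relative level was 1.21 at E2.5 and 1.72 at E3.5.

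Wtap was the most abundant of the 9 at both stages, and by a wide margin. It lies on chromosome 17 (mm10, positions 12966799 to 12992539, minus strand). Its pooled mean was 11108 at E2.5 and 10465 at E3.5, or 1694 and 1596 per kb, and its relative level was 122 and 86.4. Per kb Wtap stood at percentile 94.1 of all listed genes in morulae and 93.2 in blastocysts. It made up 61.2% of the summed relative levels of the 9 genes at E2.5 and 53.6% at E3.5. The relative level of Wtap was 6.92 times that of Mettl3 at E2.5 and 4.43 times at E3.5.

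By this gene estimate the catalytic pair was balanced at E2.5 and not at E3.5. The stage differences of both genes varied along their exons, as given further on. Mettl3 (chromosome 14, 52294841 to 52305124, minus strand) had a pooled mean of 495 at E2.5 and 727 at E3.5, a relative level of 17.6 and 19.5. Mettl14 (chromosome 3, 123368295 to 123385990, minus strand) had a pooled mean of 605 at E2.5 and 279 at E3.5, a relative level of 16.6 and 5.75. Mettl3 was thus listed at 1.06 times that of Mettl14 in morulae and 3.39 times in blastocysts. The log2 ratio of relative levels, E3.5 over E2.5, was 0.15 for Mettl3 and -1.53 for Mettl14, and is called the log2 stage difference.

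Of the adaptors, Zc3h13, which anchors the complex in the nucleus, stood close to Mettl3. Its pooled mean was 1381 at E2.5 and 2234 at E3.5, and its relative level was 16.1 and 19.7 (log2 difference 0.28). Virma, the large scaffold subunit, is not among the 9 genes and is given for completeness: its pooled means of 1000 and 1348 came to relative levels of 10.1 and 10.3 (log2 difference 0.02). Zc3h13 and Virma were therefore within 1.5 times of their E2.5 level at E3.5, as were Mettl3 and Wtap, whose log2 difference was -0.50.

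Both RBM15 paralogs, RNA-binding adaptors of the complex, were low at E2.5 and higher at E3.5. Rbm15 (chromosome 3, 107326110 to 107333289, minus strand) had a pooled mean of 125 at E2.5 and 418 at E3.5, a relative level of 2.75 and 6.92. Rbm15b, a single-exon gene on chromosome 9 (106883985 to 106887000, minus strand), had a pooled mean of 85.2 at E2.5 and 339 at E3.5, a relative level of 2.03 and 6.08. The log2 differences were 1.33 and 1.58. Within a stage the paralogs differed little, with Rbm15 at 1.35 times the relative level of Rbm15b at E2.5 and 1.14 times at E3.5.

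Cbll1, which encodes a RING-type ubiquitin ligase of the complex, had the largest stage difference of the 9 genes by this gene estimate, though not in counts of the last exon only or of the other exons only, given further on. Its pooled mean was 883 at E2.5 and 248 at E3.5 (chromosome 12, 31484829 to 31499616, minus strand). Its relative level was 15.8 in morulae, close to Mettl3, Mettl14 and Zc3h13, and 3.35 in blastocysts, the lowest of the 9. That is 4.73-fold lower at E3.5, a log2 difference of -2.24.

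By the gene estimate the erasers were both higher at E3.5, for the most part in their last exons. The exons of Alkbh5 before the last were lower there, as given further on. Fto (chromosome 8, 91313525 to 91668433, plus strand) had the lowest relative level of the 9 genes at E2.5: its pooled mean was 58.2 at E2.5 and 224 at E3.5, and its relative level 1.18 and 3.41 (log2 difference 1.53). Alkbh5 (chromosome 11, 60537683 to 60558512, plus strand) had a pooled mean of 436 at E2.5 and 1145 at E3.5, a relative level of 5.2 and 10.3 (log2 difference 0.98). Alkbh5 exceeded Fto 4.42-fold at E2.5 and 3.02-fold at E3.5.

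**Figure D1:**
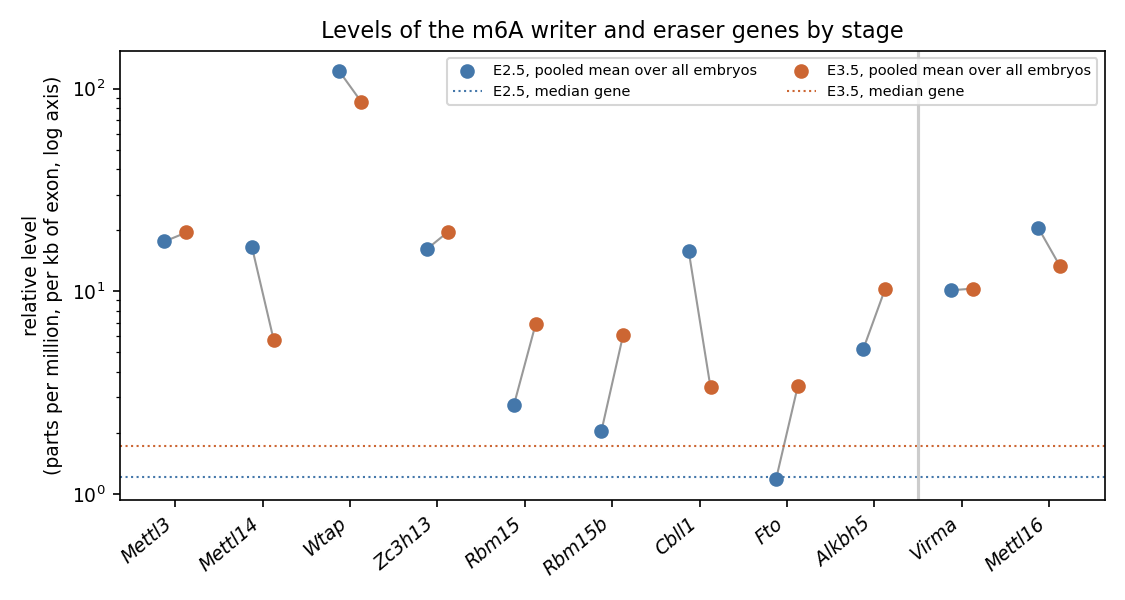
Relative level of each gene (pooled mean per kb of exon, parts per 1000000, log axis) at E2.5 (blue) and E3.5 (orange), 1 pooled value per stage with no error bar; dotted lines are the median over genes listed at both stages, and Virma and Mettl16 stand right of the grey line for comparison. Wtap lies far above the rest at 122 and 86.4, Mettl14 and Cbll1 are lower at E3.5, and Rbm15, Rbm15b, Fto and Alkbh5 are higher.

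In order of relative level, E2.5 embryos ran Wtap, Mettl3, Mettl14, Zc3h13, Cbll1, Alkbh5, Rbm15, Rbm15b and Fto, and E3.5 embryos Wtap, Zc3h13, Mettl3, Alkbh5, Rbm15, Rbm15b, Mettl14, Fto and Cbll1. With no spread between embryos, it cannot be said which neighbours in either order differ. The range was narrower at E3.5: the highest relative level was 103 times the lowest at E2.5 and 25.8 times at E3.5. All 9 genes were above the median of all listed genes per kb at both stages, Fto at E2.5 only just (percentile 51.4). Among genes with a pooled mean of at least 10, however, 5 of the 9 were above the median at each stage.

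Counted at a 2-fold difference in relative level, 3 of the 9 genes were higher at E3.5 (Rbm15, Rbm15b and Fto) and 2 were lower (Mettl14 and Cbll1). Among 13470 genes with a mean of at least 10 over both stages, 30.2% were at least 2-fold higher and 21.8% at least 2-fold lower, so the counts of the 9 genes lay near the background. Alkbh5 was just under the 2-fold line at 1.98-fold. The median log2 difference was 0.28 over the 9 genes and 0.20 over the background. With scaling on the median ratio of well-measured genes, or with summed exon counts, Alkbh5 passed the line as well and 4 genes were higher. The counts rested more on which exons were read. The last exon only gave 6 genes higher and 1 lower, beside 49.2% and 13.6% of background genes. All exons but the last gave 1 higher and 2 lower, beside 26.5% and 31%. Rbm15b, with 1 exon, has no value in that setting.

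The targeted gene and the other RNA methyltransferase genes looked at all stayed inside the 2-fold line. Mettl16 had a pooled mean of 778 at E2.5 and 669 at E3.5 over all genotypes, a relative level of 20.6 and 13.3, beside 17.6 for Mettl3 at E2.5. These are means over WT, HET and KO embryos and are no check of the knockout. Of the 6 other RNA methyltransferase genes and partners (Mettl16, Mettl5, Trmt112, Zcchc4, Pcif1 and Mettl4), 0 were 2-fold higher or lower. Over background genes the shares were 30.2% higher and 21.8% lower. Trmt112, the activating partner of METTL5 and of other methyltransferases, was the highest at 218 and 264. Zcchc4, which methylates 28S ribosomal RNA, was the lowest with 4.58 at E2.5 and 3.21 at E3.5.

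Among the 12 readers, the proteins that bind m6A or RNA opened by it, 3 were at least 2-fold higher at E3.5 and 3 at least 2-fold lower, with a median log2 difference of 0.23. Hnrnpc had the highest relative level, 861 and 598, followed by Hnrnpa2b1 with 375 and 176. Ythdc2, a helicase of the YTH family, was the lowest at both stages with 1.34 and 1.8. Prrc2a had 11.6 at E2.5 and 2.5 at E3.5, a log2 difference of -2.22 close to that of Cbll1. Readers therefore spanned a wider range of levels than writers and erasers,, and again some were higher and some lower at E3.5.

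Markers of embryonic lineages and of the oocyte differed between the stages as well. Of 8 trophectoderm genes 6 were at least 2-fold higher at E3.5 and 2 lower, and their summed relative level was 375 at E2.5 and 2636 at E3.5. All 5 oocyte genes were at least 2-fold lower, their sum 119 and 5.7. Epiblast genes summed to 544 and 272, with 2 of 6 higher and 2 lower, and primitive endoderm genes to 110 and 90, with 2 of 6 higher and 1 lower. These sums lean on single genes. The highest epiblast gene alone had 449 and 132, and the highest primitive endoderm gene 80.3 and 62.3. All 5 cumulus and granulosa genes had a pooled mean below 10 at both stages, and Foxl2 had no value at E2.5. Of 4 blood genes 3 were below 10 at E2.5 and 2 at E3.5, with sums of 6.75 and 1.64, of which the highest gene had 6.38 and 1.16. The part of cell type makeup and of remaining oocyte RNA in the stage differences of the writers and erasers was not tested.

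A second table gave the same kind of pooled mean for each single exon and intron, in reads that featureCounts placed there. A read that crosses a junction counts in both exons, so short exons are inflated, and sums over exons exceed the gene estimate: 1120 against 495 for Mettl3 at E2.5. Stage differences within 1 exon do not depend on its length, and are given as the log2 ratio of the exon's share of all exon reads. For each gene the listed transcript with the longest exons was used, with exons and introns numbered from the 5′ end.

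In 8 genes with more than 1 exon, the last exon and the exons before it often gave different stage differences. Alkbh5 is the plainest case. Its first exon had a pooled mean of 118 at E2.5 and 34.3 at E3.5, exon 2 had 36.2 and 22.4, exon 3 had 51.7 and 38.2, and the last exon, which runs over 4275 bases, had 272 and 923. Exons 1 to 3 together thus had a log2 difference of -0.87 and the last exon one of 2.02, and the last exon held 56.9% of the exon reads at E2.5 and 90.7% at E3.5. The higher level of Alkbh5 at E3.5 rested on its last exon, and the other exons pointed the other way.

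Mettl14 showed a like gap with another sign at gene level. Its exon 4 had 59.1 reads at E2.5 and 2.97 at E3.5, exon 5 had 62.3 and 4.21, and the 10 exons before the last summed to 771 and 111. The last exon had 313 and 185. The log2 difference was -2.55 over the exons before the last and -0.51 in the last exon, so the last exon held 28.9% of exon reads in morulae and 62.5% in blastocysts. The gene estimate of -1.53 lies between the 2.

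Along Mettl3 the stage difference climbed from the first exon to the sixth. Exon 1 had 60.3 reads at E2.5 and 17.6 at E3.5, a log2 difference of -1.53, exon 3 had 134 and 72.7 (-0.64), exon 5 had 121 and 115 (0.18), and exon 6 had 133 and 202 (0.86). From exon 6 on every exon lay between 0.84 and 1.13. The last 2 exons overlap an exon of Tox4 on the other strand in the GENCODE annotation, and since the libraries do not mark strand, reads of the 2 genes cannot be told apart there. Without these 2 exons the log2 difference of the rest was 0.28, with 882 reads at E2.5 and 899 at E3.5.

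**Figure D2:**
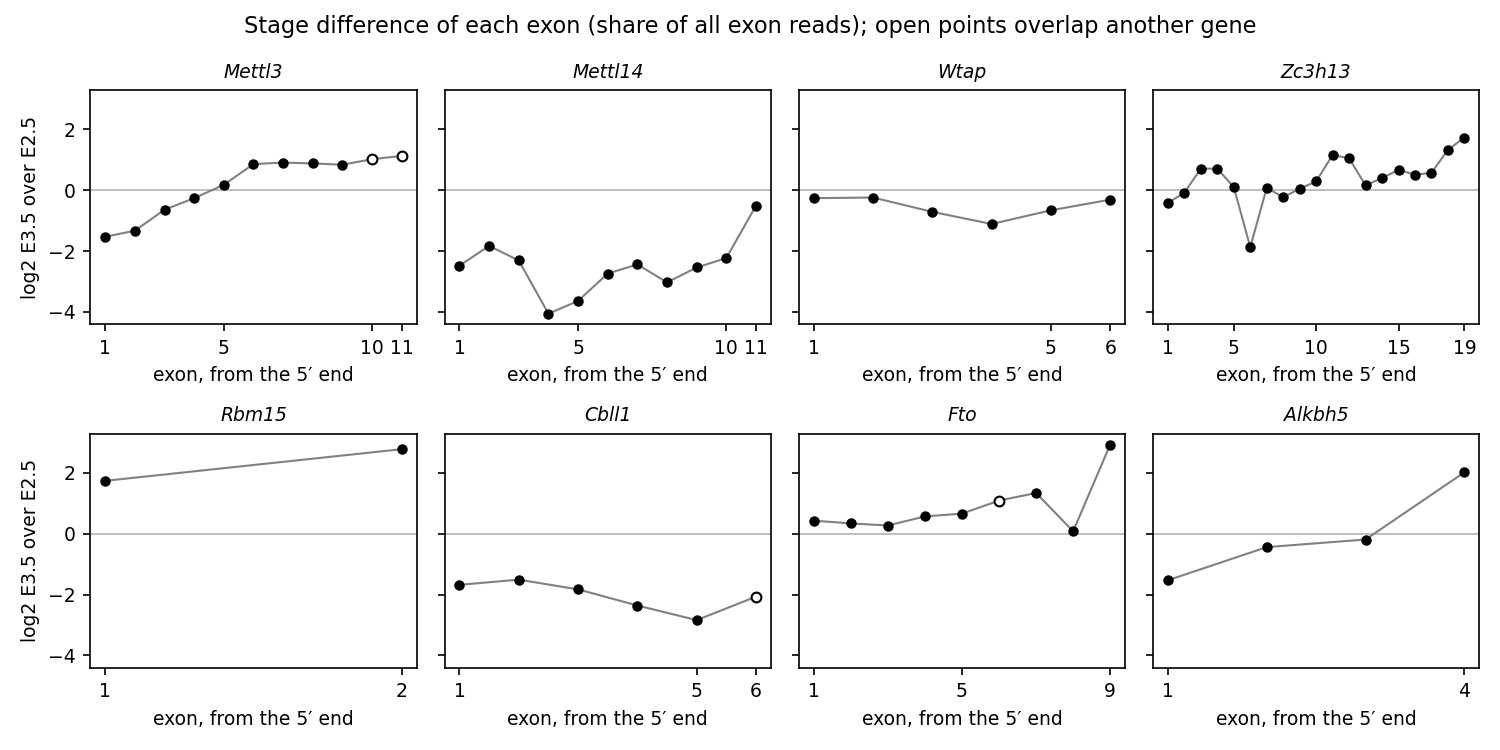
Log2 ratio of E3.5 over E2.5 of each exon's share of all exon reads, by exon number from the 5′ end, for the 8 genes with more than 1 exon; open points are exons that overlap an exon of another gene in GENCODE, and there are no error bars since each stage has 1 pooled value. Mettl3 climbs from -1.53 at exon 1 to 1.13 at exon 11, Alkbh5 from -1.53 to 2.02, Mettl14 is lowest at exon 4 (-4.06), and Wtap and Cbll1 stay below 0 throughout.

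Fto had few reads in its first exons at both stages: exons 1 to 8 summed to 63.7 at E2.5 and 79.3 at E3.5, while the last exon had 23 and 147. The log2 difference was 0.57 over the former and 2.93 in the latter, so that the higher level of Fto at E3.5 was for the most part one of its last exon. Zc3h13 had 2387 and 2680 reads in its first 18 exons (log2 difference 0.42) and 134 and 375 in the last (1.73). Its exon 6, with 41.5 and 9.58 reads, stood below its neighbours exon 5 (104 and 93.8) and exon 7 (52.3 and 46.5). Rbm15, which has 2 exons, had 108 and 304 reads in the first (1.74) and 26.7 and 154 in the second (2.78).

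Cbll1 and Wtap were lower at E3.5 in both parts. In Cbll1 the 5 exons before the last had 718 reads at E2.5 and 157 at E3.5, and the last had 638 and 128, for log2 differences of -1.94 and -2.07. This was the single gene of the 8 in which the log2 difference was lower in the last exon than in the others. Part of this last exon overlaps Gm29542 on the other strand in GENCODE. In Wtap the differences were -0.67 over the exons before the last and -0.31 in the last.

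A gap of this direction was common in these libraries. Over 9309 genes with at least 2 exons and a summed exon mean of at least 100, the log2 difference of the last exon minus that of the other exons had a median of 1.14, with quartiles at 0.56 and 1.75, and 90.7% of genes were above 0. The median share of exon reads in the last exon was 22.4% at E2.5 and 37.6% at E3.5. Against these genes Alkbh5 (2.88) stood at percentile 96.8, Fto (2.36) at 91.0 and Mettl14 (2.04) at 84.1. Zc3h13 (1.31), Rbm15 (1.03) and Mettl3 (0.74) were at 57.6, 45.0 and 32.4, and Wtap (0.36) and Cbll1 (-0.13) at 18.1 and 7.5. What sets the gap was not tested, and stage differences of whole genes carry it.

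**Figure D3:**
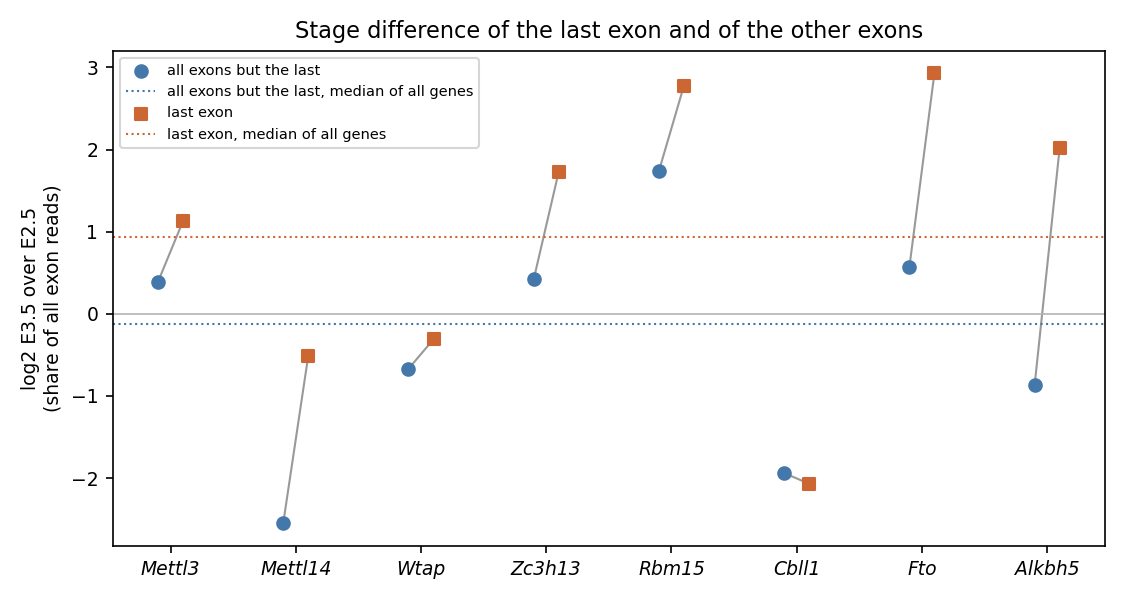
Log2 ratio of E3.5 over E2.5 of the share of all exon reads in the last exon (orange squares) and in all exons before it (blue circles) of 8 genes, with the medians of 9309 genes as dotted lines (0.94 for the last exon, -0.13 for the others) and no error bars. The squares lie above the circles in 7 genes, by 2.88 in Alkbh5, and below in Cbll1.

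Wtap has 2 listed 3′ ends. In the proximal form, transcription ends in a long last exon (chromosome 17, 12971020 to 12975474), called the proximal end. It is listed as 2 transcripts, with 4967 and 4919 bases of exon, which differ in their first exon. The distal form, with 2051 bases of exon, skips most of that last exon and ends farther downstream, at the distal end. Per kb, the last exon at the proximal end had 1131 reads at E2.5 and 767 at E3.5. Its first 179 bases are also exon 6 of the distal form and had 3001 reads at E2.5 and 1694 at E3.5. The exon's value is therefore not that of the proximal form alone. Intron 6 of the distal form, which covers the rest of this exon and the bases down to exon 7, had 3376 and 2247 reads, a log2 stage difference of -0.34. The last exon at the distal end (12966799 to 12968051) had 753 and 356 reads per kb, and its exon 7 (12969405 to 12969559) had 365 reads at E2.5 and 95.8 at E3.5. The log2 stage differences were -0.31 for the last exon at the proximal end, -0.83 for that at the distal end and -1.68 for exon 7, so the exons of the distal form alone were lower at E3.5 by more. Of the 2 listed first exons of Wtap, the upstream one had 119 reads at E2.5 and 83.6 at E3.5, and the downstream one 25.4 and 33.2. The downstream one belongs to a proximal transcript and to the distal one.

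To show where these transcripts end, the last 50 bases of each listed transcript were searched on the sense strand for AATAAA and ATTAAA, the hexamers that guide cleavage and polyadenylation. One or the other is in the last 50 bases of 66.6% of 24465 genes, and of 5 of the 9 genes (Mettl3, Mettl14, Zc3h13, Fto and Alkbh5). The distal form of Wtap holds AATAAA 20 bases from its end, and in the proximal form neither hexamer is in these bases. Of the 3 genes whose last exons stood most apart from the rest, Mettl14 and Alkbh5 hold AATAAA 24 bases from their ends. Fto holds ATTAAA 15 bases from its end. Only the hexamer nearest the end is marked, and the Fto window also holds AATAAA, in small letters, upstream of its ATTAAA. The windows, 5′ to 3′ on mm10 with the hexamer in capitals, are:
Wtap, distal form, chr17:12966803-12966828, minus strand: accaaacctaAATAAAcatttttatt
Mettl14, chr3:123368303-123368328, minus strand: taacttttctAATAAAaatttaaacc
Alkbh5, chr11:60558479-60558504, plus strand: tactgagttaAATAAAatacattatt
Fto, chr8:91668409-91668433, plus strand: acaataaagaATTAAAcgatgagaa

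Introns of the 9 genes were read next, as reads per kb of the intron in percent of the reads per kb of all exons of the same transcript. The genes hold 66 distinct introns (Rbm15b has none), and 60 of them are free of any listed exon. At E2.5 1 of the 60 reached a ratio of 10%, and at E3.5 2 did, against 3.09% and 6.02% of 102002 introns in all genes with a summed exon mean of at least 100. Among genes with a summed exon mean of at least 1000 the shares of introns were lower, 1.22% and 2.73%. The 1.67% and 3.33% of these 60 introns lay below the first background and above the second. The 60 include introns of genes that miss the stricter minimum as a mean of both stages. Cbll1, with summed exons of 1356 at E2.5 and 285 at E3.5, is one of them. The second comparison is therefore between unlike sets. The median ratio over the 60 was 0.637% at E2.5 and 1% at E3.5, beside 0.446% and 0.859% over all those introns. In 47 of 60 introns the ratio was higher at E3.5 (78.3%, against 71.5% of all introns). With 1 or 2 introns past 10%, the counts of this group are not told apart from either background.

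Intron 1 of Cbll1 stood out within the group. It spans 4773 bases (chromosome 12, 31494750 to 31499522), and had 224 reads at E2.5 and 68.4 at E3.5, a ratio of 13.9% and 20.2%, at percentile 97.9 and 97.8 of all introns. The reads in the intron were lower at E3.5 along with those of the exons, with a log2 difference of -1.46. Set against its 2 flanking exons alone, both short, the ratio was 4.27% and 4.58%. Intron 2 of Cbll1 had 1.82% and 5.67%. A 465-base stretch inside the last exon, listed as an intron of another Cbll1 transcript, had 313 and 51.3 reads and is exon in the main form.

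Mettl14 intron 5 (3984 bases) went against its exons. It had 15.8 reads at E2.5 and 39.2 at E3.5, while exons 5 and 6 beside it were at 62.3 and 67.2 at E2.5 and at 4.21 and 8.47 at E3.5. The ratio to all exons was 0.962% at E2.5 and 8.73% at E3.5 (percentile 67.6 and 92.9). In blastocysts the intron thus held more reads than the exons on either side of it, although per kb it stayed lower at 9.84 against 47.8 and 93.1. Against its 2 flanking exons the ratio of intron 5 was 0.549% and 13.9%. Intron 10 of Mettl14 had 0.394% and 3.37%.

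Intron 5 of Wtap (5347 bases, 12975475 to 12980821) had 272 reads at E2.5 and 533 at E3.5, a ratio of 2.03% and 6.75%, while the exons of Wtap were lower at E3.5. It leads into the long last exon. The longest intron free of listed exons, of 6123 bases, had 0.732% and 2.56%. In Mettl3, intron 8, of 82 bases, about as long as 1 read, had 2.09 and 6.31 reads (4.61% and 11.8%), and the longest, intron 1, had 1.05% and 2.26%. Against the flanking exons these were 2.29% and 4.52% for intron 8 and 1.73% and 13.8% for intron 1. Intron 9 had 6.33% at both stages, but it overlaps an exon of Tox4 in GENCODE. The last intron of Mettl3, 980 bases long, had 91.5 and 85.2 reads, and it too overlaps Tox4, so neither can be assigned to Mettl3.

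Fto had the highest share of its reads in introns of the 9 genes. Its introns span 351 kb and had 166 reads in all at E2.5 and 758 at E3.5, against 86.7 and 226 in its exons, so introns held 65.6% and 77% of its reads. That put Fto at percentile 99.0 and 98.9 of 9331 genes, whose median was 5.06% and 8.56%. Over 799 genes with at least 100 kb of introns the median was 25% and 42%. Intron 8, of 143385 bases, had 109 and 443 reads, a ratio of 3.13% and 4.85% (percentile 88.1 and 86.1), and intron 3 had 1.91% and 2.56%. Of its 8 introns, 6 hold an exon of another GENCODE gene, whose reads cannot be told apart from those of Fto.

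Rbm15 has 1 intron, of 3910 bases, with 9.5 reads at E2.5 and 35.9 at E3.5 (5.9% and 6.55%, percentile 94.1 and 89.9). In GENCODE a retained-intron transcript of Rbm15 runs over part of it. Other named introns also hold GENCODE exons of their own gene, so reads there may be of exons not listed. These are Mettl3 introns 1 and 8, Mettl14 intron 10, Fto intron 8, Zc3h13 intron 17 and the 6123-base intron of Wtap. Cbll1 intron 1, Mettl14 intron 5 and Wtap intron 5 hold none. Alkbh5 intron 1 had 2.27% and 1.86% and intron 3 had 1.27% and 1.65%. Of 18 introns of Zc3h13, intron 13 had the highest ratio with 1.8% and 1.94%, intron 17 had 1.65% and 1.3%, and the longest, intron 4 of 11786 bases, had 0.142% and 0.167%. Introns took 4.27% of Zc3h13 reads at E2.5 and 4.62% at E3.5.

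**Figure D4:**
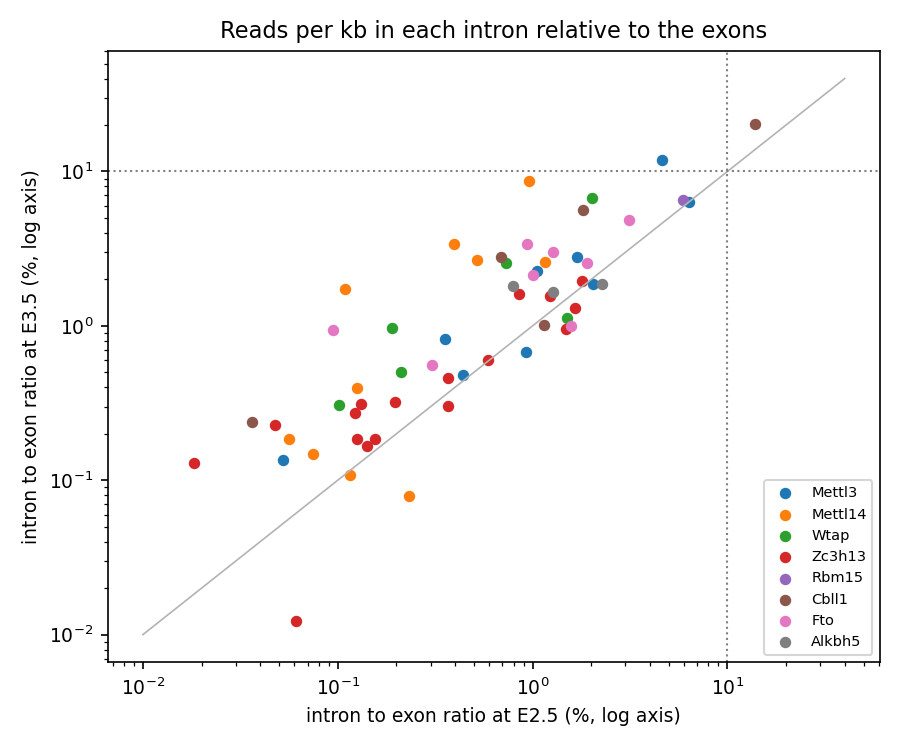
Reads per kb of each intron in percent of the reads per kb of its transcript's exons, at E2.5 (x axis) and E3.5 (y axis), both log axes, 1 point per intron free of listed exons, coloured by gene; 59 of 60 are drawn, since 1 had no reads at E2.5. The grey line marks equal ratios and dotted lines mark 10%; Cbll1 intron 1 is the point at 13.9% and 20.2%, and Mettl14 intron 5 lies farthest above the line among those near 10%, at 0.962% and 8.73%.

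The splice sites of Cbll1 intron 1, Wtap intron 5 and Mettl14 intron 5 are shown because these introns are the ones set against their exons above. All 3 begin with GT and end with AG, as did 99% of 187658 introns of all genes. Each is given 5′ to 3′ on mm10, minus strand, with the first or last 2 bases of the intron in capitals and exon bases outside them:
Cbll1 intron 1, 5′ site, chr12:31499509-31499528: acactgGTaaggaggcggag
Cbll1 intron 1, 3′ site, chr12:31494746-31494771: ttcttttcttacattcatatAGacaa
Wtap intron 5, 5′ site, chr17:12980808-12980827: tgcaccGTgagtgtctttaa
Wtap intron 5, 3′ site, chr17:12975471-12975496: ttgtaccctttgctttgcacAGactc
Mettl14 intron 5, 5′ site, chr3:123380206-123380225: atgtagGTatgtcagcttta
Mettl14 intron 5, 3′ site, chr3:123376232-123376257: ttgactattttttcctccttAGgttt

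METTL16 methylates structured RNA that carries the nonamer UACAGAGAA, which the study used in its test substrate. The sense strand of all listed exons and introns of the 9 genes was searched for it as TACAGAGAA. No exon of the 9 genes holds it, against 3.3% of 24465 genes with it in their exons. Their introns hold 12 copies in 6 genes (Mettl3, Mettl14, Zc3h13, Cbll1, Fto and Alkbh5), and 35.2% of all genes hold it between their first and last exon. The 9 genes were searched in every listed transcript and all genes in the longest listed one only. Gene length was not matched either, so an excess cannot be read from these figures. Fto, the longest of the 9, has 6 of the 12, of which 5 are in intron 8.

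Both Cbll1 intron 1 and Mettl14 intron 5, the introns described above, hold a copy, and their windows are the same in every base shown. Copies in Mettl3, Zc3h13 and Fto resemble them, and these letters are of the kind found in the B1 family of short repeats, which are spread through mouse introns. Repeats were not annotated here, folding was not examined, and a match says nothing of binding or methylation. The windows with the nonamer in capitals, 5′ to 3′ on mm10, are:
Cbll1 intron 1, chr12:31497613-31497641, minus strand: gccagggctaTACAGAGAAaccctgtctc
Mettl14 intron 5, chr3:123377705-123377733, minus strand: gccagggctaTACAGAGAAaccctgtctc
Mettl3 intron 1, chr14:52302711-52302739, minus strand: gctggggctaTACAGAGAAaccttgtctt
Zc3h13 intron 8, chr14:75319519-75319547, plus strand: cagagagctaTACAGAGAAaccctgtctc
Fto intron 8, chr8:91601805-91601833, plus strand: gccagggctaTACAGAGAAagcctgtctt
Alkbh5 intron 2, chr11:60549727-60549755, plus strand: atgtctaggcTACAGAGAAcattcagaga

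Zc3h13 intron 8 had 2.99 reads at E2.5 and 8.59 at E3.5, and Alkbh5 intron 2 had 3.74 and 18.3. Introns with the nonamer therefore ranged from sparse to Cbll1 intron 1, which had the highest ratio to all exons among introns free of listed exons. Wtap intron 5, in a gene without the nonamer, had more reads than Cbll1 intron 1, with 272 at E2.5 and 533 at E3.5. In ratio to all exons the order was the reverse. Wtap intron 5 had 2.03% at E2.5 and 6.75% at E3.5, and Cbll1 intron 1 had 13.9% and 20.2%. With pooled means over all genotypes, whether their reads differ with Mettl16 genotype was not examined here.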

How the data were processed

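Single embryos were sequenced by Smart-seq2, a polyA-primed protocol that does not mark strand. Per the submitters' processing notes and the study's methods, the authors estimated RefSeq transcripts (mm10) with Salmon 0.7.2, counted exons and introns with STAR and featureCounts, and normalized with DESeq2 1.18.1. The deposited signal is the normalized mean per gene, exon or intron over all embryos of a stage. Log2 fold changes and p-values between genotypes in the same tables are the authors' comparisons and were not used, and 0 columns of values per sample were found. The in vitro methylation table was not used.

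The 9 genes and all lists were chosen with earlier results of these data known; marker lists are given by counts. Named genes are the 9 members, Virma and Mettl16, up to 2 of the highest and 2 of the lowest per kb among readers and other methyltransferases at either stage, and of each member's introns the 2 with the highest ratio and the longest. Foxl2 was named after its values were seen, as were the introns and windows whose sequences are shown. Virma, listed under an older symbol in the exon table, was matched by RefSeq accession. Exon lengths are unions of listed exons; 20244 of 20330 and 21103 of 21199 genes had one. Coordinates matched GRCm38, whose RefSeq sequence and GENCODE release 21 were used. No test across genes was run, and depth per embryo was not used, so no interval is given. A planned test per embryo needed values per embryo. The step that gives stage differences of genes was tested on simulated data, and the intron and sequence steps were not. In the simulation few genes were changed, and ratios were centred on the genes known to be unchanged. Real data do not give that set, so the simulation checks the calculation alone. Python 3.11.15, pandas 2.3.3, numpy 2.4.6 and matplotlib were used.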

Additional observations from a re-analysis of the deposited data

How the results depend on the processing

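No paired analysis was possible because the embryo tables hold 1 pooled mean per stage, and for the same reason leaving out each embryo in turn was not run. Alternatives on single exons and on added read length were chosen after seeing the data. Among genes with a pooled mean of at least 10, 5 of 9 genes were above the median at E2.5 and 5 at E3.5, in place of 9 and 9. With the last exon only, 6 genes were at least 2-fold higher at E3.5 and 1 lower, in place of 3 and 2. With all exons but the last 1 was higher and 2 lower, and Rbm15b, with 1 exon, had no value. Over background genes the last exon alone gave 49.2% higher and 13.6% lower, and the other exons 26.5% and 31%. With 2 flanking exons as denominator 0 introns reached 10% at E2.5 in place of 1, and at E3.5 the 2 were Mettl14 intron 5 and Mettl3 intron 1 in place of Cbll1 intron 1 and Mettl3 intron 8; with introns of at least 200 bases 1 did at E3.5 in place of 2. Other counts stayed within 1.5 times under scaling on median ratios, summed exon counts, a pseudocount of 1, the longest transcript as length, exons free of other genes and added read length. No stage difference past 2-fold changed sign under these settings, while that of Alkbh5, just under 2-fold, was -0.87 without its last exon.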
